A study of Homo sapiens with 7 samples.

Results

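Cystine import, iron handling and ferroptosis were examined through 10 genes in ACHN cells, a human renal cell carcinoma (RCC) line, with and without forced expression of the long non-coding RNA HOTAIR. The genes were SLC7A11, SLC3A2, GPX4, AIFM2, ACSL4, HMOX1, FTH1, FTL, TFRC and SLC40A1, and they were chosen by their names, with earlier results of this HOTAIR against EV contrast known. The array carries 14 probes for them, on 49 spots per array, among 42405 probes on 58717 non-control spots. The 4 control samples (EV 1 to 4) came from cells infected with a retrovirus made from the empty pBabe-hygro vector (EV), and the 3 HOTAIR samples (HOTAIR 1 to 3) from cells infected with the same vector carrying HOTAIR cDNA. Both groups therefore share the retroviral vector with its hygromycin resistance gene and the ACHN background. Total RNA of each sample was hybridised to a single-colour Agilent SurePrint G3 Human GE array, 1 array per sample. The sources used here do not say whether samples of a group came from separate infections or cultures, so the spread between them may be technical.

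Ferroptosis is a form of cell death driven by iron-dependent peroxidation of membrane lipids. Cells hold it back by importing cystine through system xc-, a pair of a light chain (SLC7A11, also called xCT) and a heavy chain (SLC3A2, also called CD98hc), and by using the cysteine to make glutathione, with which the peroxidase GPX4 reduces lipid peroxides. Iron enters through the transferrin receptor TFRC, is stored in ferritin (FTH1 and FTL), leaves through ferroportin (SLC40A1) and is released from haem by haem oxygenase HMOX1. The kidney tubule, from which RCC arises, handles much cystine and iron.

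Each level below is the log2 processed intensity of a probe minus the 75th percentile of its own array, so that 0 is the intensity which 75% of the spots do not exceed. That percentile lay between 523 and 649 intensity units on the EV arrays and between 552 and 640 on the HOTAIR arrays. Between 48.7% and 52.1% of the probes were well above background on an array, and no spot was saturated. The probe for HOTAIR itself had levels of -6.29, -6.97, -6.42 and -7.07 on EV 1 to 4, none of them well above background, and of -3.12, -3.24 and -2.58 on HOTAIR 1 to 3, so it was higher on every array labelled HOTAIR. Of 11 renal epithelial and renal carcinoma markers, 10 were well above background on all 7 arrays and CA9 was so on none, while CD14 and CD68 were the only ones of 5 leukocyte markers, and none of 4 endothelial or 6 fibroblast markers, well above background on all arrays. All EV arrays lay in one row of the slide and all HOTAIR arrays in the other, so row and group cannot be told apart. EV 2 and HOTAIR 3 departed from the other arrays of their groups for several members. The members' results that they touch are given with and without them.

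The probes that the results turn on are shown by their sequence, since what an array measures is what its 60-base probes bind. The first 30 bases of the SLC7A11 and HMOX1 probes are given for the pair of genes with the largest positive differences. The SLC3A2 and GPX4 probes are given in full as the partners of SLC7A11 in the pathway, and 1 ferritin probe each is given in full because ferritin genes have near-identical copies. Positions are those of the array's annotation on hg19, and their exon or intron placement was not analysed here.
SLC7A11, A_33_P3242623, chr4:139085433-139085492, minus strand: gaagtaagtgtgtttgttttcatcttatgg
HMOX1, A_23_P120883, chr22:35790122-35790181, plus strand: tggggagggaggtgtttaacggcactgtgg
SLC3A2, A_23_P75811, chr11:62652689-62652748, plus strand: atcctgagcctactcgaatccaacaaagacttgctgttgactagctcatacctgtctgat
GPX4, A_33_P3309662, chr19:1105673-1105732, plus strand: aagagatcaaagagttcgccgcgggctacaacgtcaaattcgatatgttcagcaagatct
FTH1, A_24_P58337, chr1:228823438-228823497, plus strand: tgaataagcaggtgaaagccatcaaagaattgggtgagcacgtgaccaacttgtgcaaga
FTL, A_32_P155247, chr20:4004668-4004727, plus strand: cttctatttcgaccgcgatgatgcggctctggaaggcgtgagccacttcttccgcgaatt
For 10 of the 14 member probes the annotated chromosome was the one on which RefSeq lists the gene. The other 4 were all 3 FTH1 probes and the FTL probe shown here.

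All 10 genes had a probe well above background on all 7 arrays, and 13 of the 14 member probes could be compared between the groups. SLC7A11 and HMOX1 were higher on every HOTAIR array than on any EV array, by 1.99-fold and 1.77-fold, and SLC40A1 was lower on every HOTAIR array, by 1.27-fold. Since RNA came from whole cultures, a change in the share of cells that make a transcript and a change in its amount per cell cannot be told apart. The groups overlapped for the other 7 genes. By limma, with p-values adjusted over all 20419 tested probes, 1 of the 10 genes (SLC7A11) passed an adjusted p of 0.05, and 0.167% of all tested probes did (34, of which 27 were higher and 7 lower in HOTAIR). At an unadjusted p of 0.05, 3 of the 10 passed (SLC7A11, HMOX1 and SLC40A1), and 5.85% of all tested probes did. The same 3 genes had groups that did not overlap, as had 7.70% of all tested probes. Because the genes were chosen with this contrast known, these counts and the differences below are a description, and no p-value is given for a single member. The median difference of the 10 genes was 0.03 on the log2 scale, against 0.01 over all tested probes, of which the middle 95% lay between -0.37 and 0.65.

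**Figure D1:**
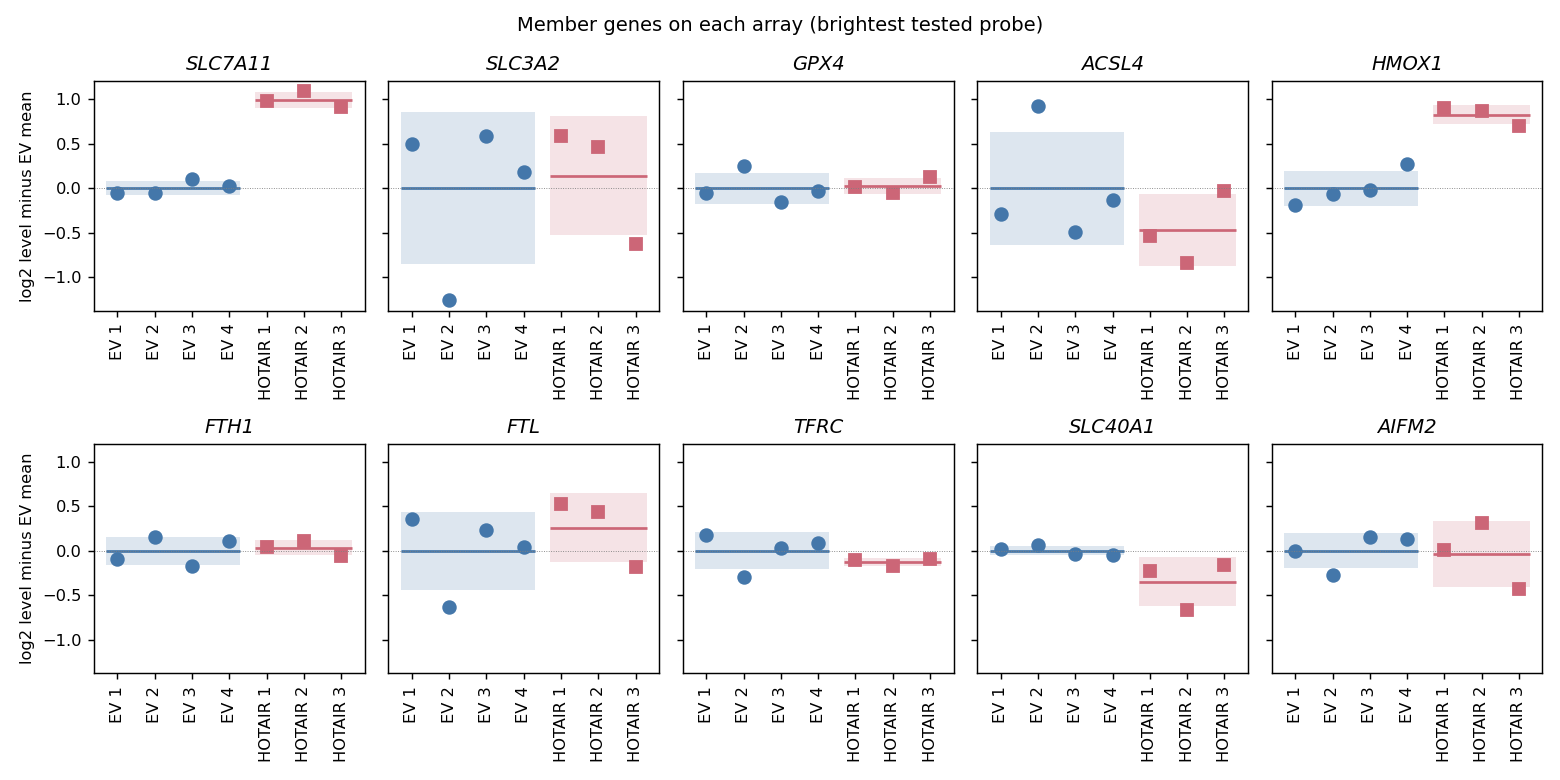
Log2 level of each of the 10 genes on each array (y axis, minus the EV mean of that gene), for the brightest tested probe; circles are EV arrays, squares HOTAIR arrays, lines group means and bands 1 SD. SLC7A11 and HMOX1 lie higher on all 3 HOTAIR arrays than on any of the 4 EV arrays, and EV 2 lies low for SLC3A2 and FTL and high for ACSL4.

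Cystine uptake came first in the order of the pathway. SLC7A11, the transporter subunit that carries cystine in exchange for glutamate, had levels of -0.01, -0.01, 0.14 and 0.07 on EV 1 to 4 and of 1.03, 1.13 and 0.96 on HOTAIR 1 to 3. In processed intensity units these were 643, 526, 631 and 547 on the EV arrays and 1303, 1211 and 1091 on the HOTAIR arrays. The HOTAIR arrays were all higher than the EV arrays, and the arrays within a group lay close together, with an SD of 0.08 (n = 4) in EV and 0.09 (n = 3) in HOTAIR. The log2 difference was 0.99 (SE 0.10), and 172 of the 20419 tested probes (0.842%) had a larger positive one. Each array carried 2 spots of this probe, whose SD within an array was at most 0.14. In EV 2 and HOTAIR 3, SLC7A11 departed from the mean of the other arrays of its group by -0.08 and -0.12, and the difference was 1.01 without both of them. It passed the adjusted p in 6 of 17 alternative settings. With 1 array left out it passed only without EV 2 and not without EV 1, EV 3, EV 4 or any of the HOTAIR arrays, where it lay between 0.95 and 1.03.

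SLC3A2, the heavy chain that brings SLC7A11 and several amino acid carriers to the cell surface, had levels of 2.07, 0.30, 2.15 and 1.74 on EV 1 to 4 and of 2.15, 2.03 and 0.93 on HOTAIR 1 to 3. Its groups overlapped, and the lowest array in each group was EV 2 and HOTAIR 3. The log2 difference was 0.14 with an SE of 0.50, the largest SE of the 13 tested member probes, and its 95% interval from -1.02 to 1.30 held both 0 and the difference of SLC7A11. It was -0.28 without EV 2, 0.52 without HOTAIR 3 and 0.10 without both. The 2 spots of the SLC3A2 probe had an SD of at most 0.12 within an array, so the low values of EV 2 and HOTAIR 3 were seen by both spots.

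GPX4, the selenoprotein that reduces lipid hydroperoxides with glutathione, had levels of 3.99, 4.29, 3.89 and 4.01 on EV 1 to 4 and of 4.05, 3.99 and 4.17 on HOTAIR 1 to 3. The groups overlapped, with EV 2 the highest array, and the log2 difference was 0.03 (SE 0.13, 95% interval from -0.27 to 0.33). It was 0.11 without EV 2, -0.02 without HOTAIR 3 and 0.06 without both. AIFM2, also called FSP1, which keeps ubiquinone reduced so that it can trap lipid radicals independently of GPX4, had levels of 0.64, 0.37, 0.80 and 0.78 in EV and of 0.65, 0.96 and 0.22 in HOTAIR. EV 2 and HOTAIR 3 were again the lowest arrays of their groups, and the log2 difference was -0.04 (SE 0.20). It had no stable sign, with -0.13 without EV 2, 0.16 without HOTAIR 3, 0.06 without both and -0.21 without HOTAIR 2. A further AIFM2 probe, A_33_P3319231, failed to rise well above background on all 7 arrays and was not compared.

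ACSL4, the enzyme that loads polyunsaturated fatty acids into membrane lipids and thereby provides the substrate of peroxidation, had levels of -0.20, 1.02, -0.40 and -0.04 on EV 1 to 4 and of -0.45, -0.75 and 0.06 on HOTAIR 1 to 3. The groups overlapped, and EV 2 and HOTAIR 3 were the highest arrays of their groups. The log2 difference of -0.47 (SE 0.36) was the lowest of the 10 genes. It was -0.16 without EV 2, -0.69 without HOTAIR 3 and -0.38 without both.

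**Figure D2:**
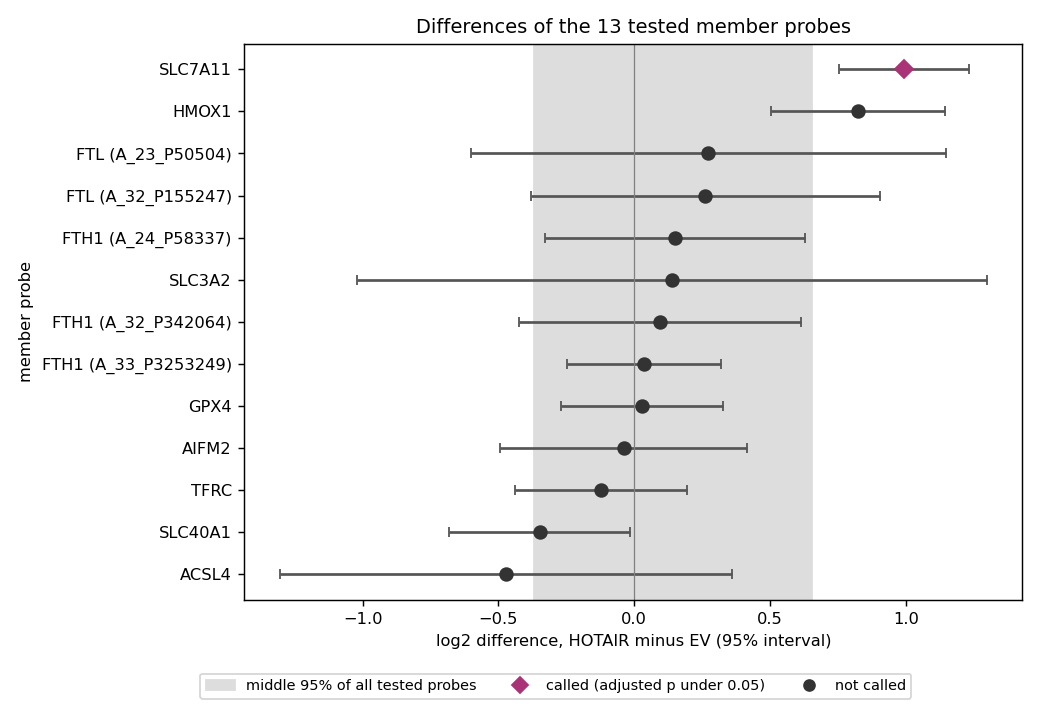
Log2 difference (x axis, HOTAIR minus EV) of each of the 13 tested member probes with its 95% interval; the diamond marks the SLC7A11 probe, which passed the adjusted p, and the grey band the middle 95% of all tested probes, from -0.37 to 0.65. SLC7A11 and HMOX1 lie right of the band, ACSL4 left of it with an interval that includes 0, and the widest interval is that of SLC3A2.

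HMOX1, which opens the haem ring and frees its iron together with carbon monoxide and biliverdin, had levels of 3.45, 3.57, 3.61 and 3.91 on EV 1 to 4 and of 4.54, 4.50 and 4.34 on HOTAIR 1 to 3. The lowest HOTAIR array was above the highest EV array, EV 4. The log2 difference was 0.82 (SE 0.14), 285 of the tested probes (1.40%) had a larger positive one, and it did not pass the adjusted p. HMOX1 is 1 of the 3 members that the array prints on 10 spots, and the SD between those spots was from 0.03 to 0.10 within an array, below the SD between arrays of 0.20 in EV and 0.11 in HOTAIR. HMOX1 departed by -0.09 in EV 2 and by -0.18 in HOTAIR 3, and the difference was 0.86 without both.

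**Figure D3:**
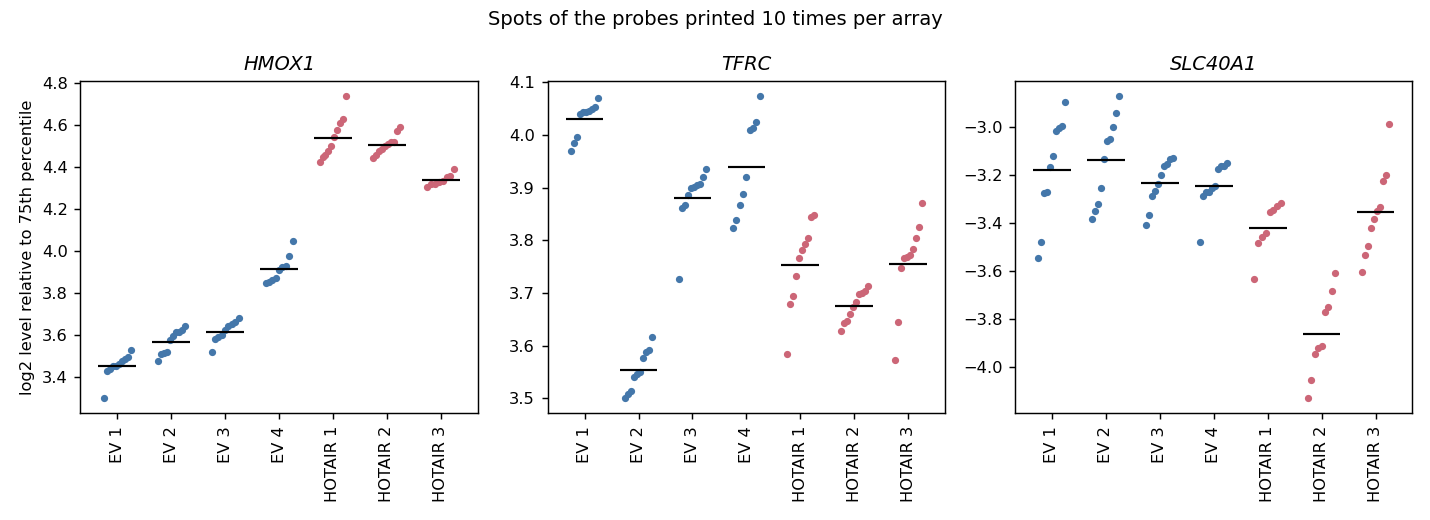
Log2 level (y axis, relative to each array's 75th percentile) of every spot of the HMOX1, TFRC and SLC40A1 probes, up to 10 per array; each point is a spot, the horizontal line the mean of the array, blue marks EV and red HOTAIR. For HMOX1 the array means are 3.45 to 3.91 in EV and 4.34 to 4.54 in HOTAIR, and for SLC40A1 the HOTAIR 2 mean of -3.87 is the lowest.

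Ferritin, the cage in which iron is stored, is built of the heavy chain FTH1, which oxidises ferrous iron, and the light chain FTL. Both genes have many processed pseudogenes, with 27 symbols of the form FTH1P and 20 of the form FTLP in the RefSeq gene table, so that the values of both may include RNA from other copies and are uncertain. The 3 FTH1 probes were annotated on chromosomes 2, 1 and X, whereas RefSeq lists FTH1 on chromosome 11, and FTL probe A_32_P155247 was annotated on chromosome 20 and RefSeq lists FTL on chromosome 19. FTH1 probes A_33_P3253249 and A_32_P342064 cover 26 positions of the transcript in common, at which 24 bases are identical. Counted from the first shared position, the substitutions from the former to the latter were G1A and C5T, which are the capitals in the shared stretches printed here.
FTH1, A_33_P3253249: GacaCccacttaagttctttgatttg
FTH1, A_32_P342064: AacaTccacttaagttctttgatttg

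The brightest FTH1 probe, A_33_P3253249, had levels of 7.22, 7.47, 7.15 and 7.43 on EV 1 to 4 and of 7.36, 7.43 and 7.26 on HOTAIR 1 to 3. The groups overlapped, and the log2 differences of the 3 FTH1 probes were 0.03, 0.15 and 0.10, with SEs of 0.12, 0.21 and 0.22, in the order A_33_P3253249, A_24_P58337 and A_32_P342064. With 1 array left out in turn, the first lay between -0.02 (without EV 3) and 0.08 (without EV 2), the second between 0.03 (without EV 1) and 0.30 (without EV 4), and the third between -0.04 (without EV 1) and 0.26 (without EV 2). Without both EV 2 and HOTAIR 3 the FTH1 differences were 0.13, 0.29 and 0.34. The brightest FTL probe, A_32_P155247, had levels of 5.84, 4.85, 5.71 and 5.52 in EV and of 6.01, 5.91 and 5.30 in HOTAIR, with EV 2 and HOTAIR 3 the lowest arrays of their groups. Its log2 difference was 0.26 (SE 0.28), and that of the other FTL probe, A_23_P50504, was 0.27 (SE 0.38). Without EV 2 these were 0.05 and -0.07, without HOTAIR 3 they were 0.48 and 0.50, and without both EV 2 and HOTAIR 3 they were 0.27 and 0.16. In EV 2 all 3 FTH1 probes lay above the mean of the other EV arrays and both FTL probes below it. The FTH1 probes start at transcript positions 855, 650 and 889 and the FTL probes at 303 and 165. Chain and probe position therefore cannot be told apart, and the part of position was not tested.

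TFRC, which takes up iron bound to transferrin, had levels of 4.03, 3.55, 3.88 and 3.94 on EV 1 to 4 and of 3.75, 3.67 and 3.76 on HOTAIR 1 to 3. The HOTAIR arrays lay within the range of the EV arrays, whose lowest was EV 2. The log2 difference was -0.12 (SE 0.14), and it was -0.22 without EV 2, -0.14 without HOTAIR 3, -0.24 without both and -0.06 without EV 1. Its probe is printed on 10 spots, with an SD within an array of 0.03 to 0.09.

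SLC40A1, the only known cellular iron exporter of vertebrates, had levels of -3.18, -3.14, -3.23 and -3.25 on EV 1 to 4 and of -3.42, -3.87 and -3.35 on HOTAIR 1 to 3. All HOTAIR arrays were lower than all EV arrays, and HOTAIR 2 was the lowest. The log2 difference was -0.35 (SE 0.14), did not pass the adjusted p, and was -0.19 without HOTAIR 2 and -0.16 after normexp background correction. The SD between the 10 spots of SLC40A1 within an array was 0.10 to 0.22, against 0.03 to 0.10 for HMOX1.

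The departures of EV 2 and HOTAIR 3 touched the members unequally. A departure is the level of the array minus the mean of the other arrays of its group. SLC3A2 departed most, by -1.68 in EV 2 and by -1.15 in HOTAIR 3. FTL followed, by -1.36 and -0.67 for probe A_23_P50504 and by -0.84 and -0.66 for probe A_32_P155247. ACSL4 departed the other way, by 1.24 and 0.66. For 9 of the 13 tested member probes the departures in EV 2 and HOTAIR 3 had the same sign. Probes of the same gene were counted separately. The share over all tested probes was not computed, so the count is no result about the members. Over all tested probes the SD of the departure was 0.63 in EV 2 and 0.43 in HOTAIR 3. A departure of more than 1 in either direction was seen for 9.48% of the probes in EV 2 and 3.37% in HOTAIR 3. These values were not computed for the other arrays. The labels name nothing that sets these 2 arrays apart, and the part of RNA quality or handling was not tested.

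**Figure D4:**
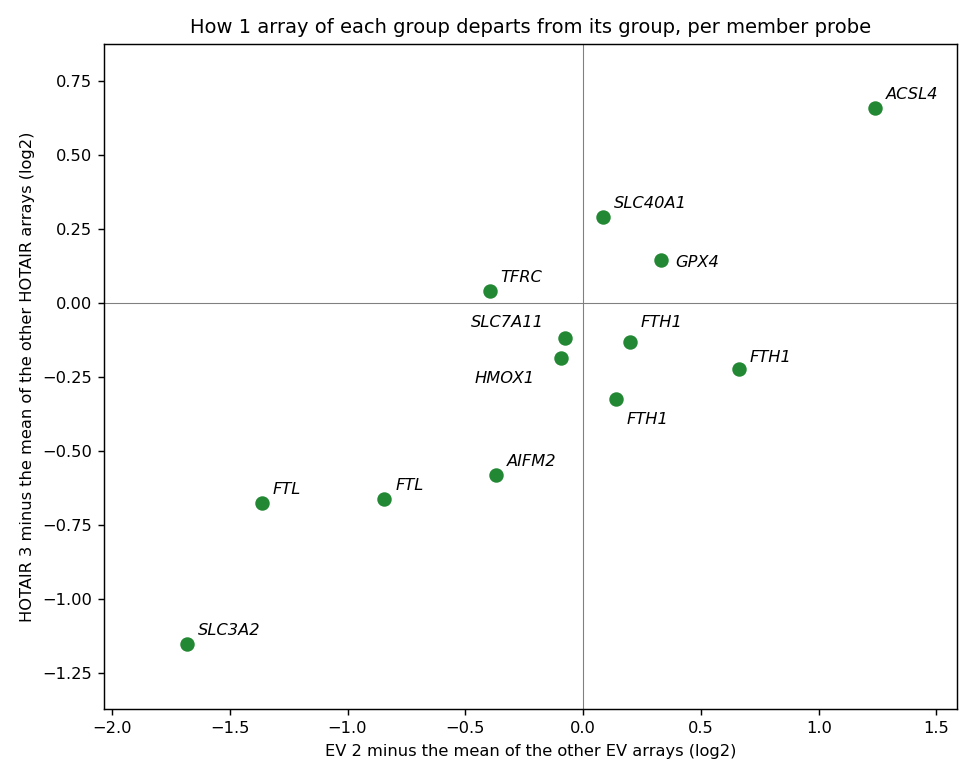
Departure of EV 2 from the mean of the other EV arrays (x axis, log2) against the departure of HOTAIR 3 from the mean of the other HOTAIR arrays (y axis, log2), 1 point for each of the 13 tested member probes. SLC3A2 (-1.68 and -1.15) and ACSL4 (1.24 and 0.66) lie at the ends, and SLC7A11 and HMOX1 lie near 0 on both axes.

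The other genes of the pathway were followed in 6 lists with 94 genes in all, of which 71 had a tested probe. None of the 71 passed the adjusted p by limma, as 0.167% of all tested probes did. At an unadjusted p of 0.05 there were 3 of 71 (CBS and SLC3A1 higher, ATF3 lower), beside 5.85% of all tested probes. By the brightest probe the groups did not overlap for 6 of the 71, beside 7.70% of all tested probes. CBS and SLC3A1 were higher and GSS, SLC11A2, FBXL5 and KEAP1 lower in HOTAIR. At the dimmer tested probes of SLC3A1 and SLC11A2 the groups overlapped. The dimmer tested ATF3 probes had differences of -0.25, 0.06 and -0.19, beside -0.33 for the brightest. GSS, SLC11A2 and KEAP1 are named after their values were seen. The median log2 difference of the 71 genes was 0.01, and 37 of the 71 were above 0. The highest and the lowest gene of a list are given as values, except the highest of the iron uptake, storage and export list.

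Of 17 genes for cystine use and glutathione, 16 were tested, with a median difference of 0.11. CBS, which starts the conversion of homocysteine to cysteine, had levels of 3.32, 3.01, 3.40 and 3.50 on EV 1 to 4 and of 3.59, 3.78 and 3.72 on HOTAIR 1 to 3. All HOTAIR arrays of CBS were higher than the EV arrays, by 0.39, and GLS2, a glutaminase, was at the other end of the list with -0.24. Of 8 genes for other CD98 light chains and the kidney cystine carrier, only 3 were tested. SLC3A1, the heavy chain of the tubular cystine carrier and a relative of SLC3A2, had levels of 0.21, -0.10, -0.04 and -0.04 in EV and of 0.32, 0.37 and 0.28 in HOTAIR. The groups did not overlap at this probe, with a difference of 0.32. At a dimmer SLC3A1 probe, A_33_P3418426, they overlapped, with a difference of 0.41. SLC7A6 had the lowest value of the 3 tested genes, -0.18. The 5 genes not tested, SLC7A7, SLC7A8, SLC7A9, SLC7A10 and SLC7A13, were well above background on no array.

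Of 23 further genes for iron uptake, storage and export, 15 were tested, with a median difference of -0.01. HAMP, the hormone that removes SLC40A1 from the cell surface, had the lowest difference of these, -0.20. All 11 genes for iron sensing and haem breakdown were tested. BLVRB, which reduces biliverdin, a product of HMOX1, had the highest difference of these, 0.30, with HOTAIR 3 within the EV range. FBXL5, the iron-sensing ubiquitin ligase subunit that removes the iron regulatory protein IREB2, had the lowest, -0.26, with all HOTAIR arrays lower than all EV arrays. Of 24 genes for lipid peroxidation and radical trapping, 16 were tested, from ACSL1 with -0.42 to POR, an electron donor that can start lipid peroxidation, with 0.39. EV 2 was the highest EV array for ACSL1 (1.68) and the lowest for POR (0.14).

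Of 11 regulators, 10 were tested, from ATF3, a stress-induced transcription factor, with -0.33 to VDAC3, a mitochondrial outer membrane channel, with 0.23. NFE2L2 (NRF2), a transcription factor known to drive SLC7A11, HMOX1 and ferritin genes, was the regulator not tested, since its probe was well above background on no EV array and not on every HOTAIR array. NFE2L2 is named outside the rule for named genes, after its values were seen, and its part in the differences was not tested.

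**Figure D5:**
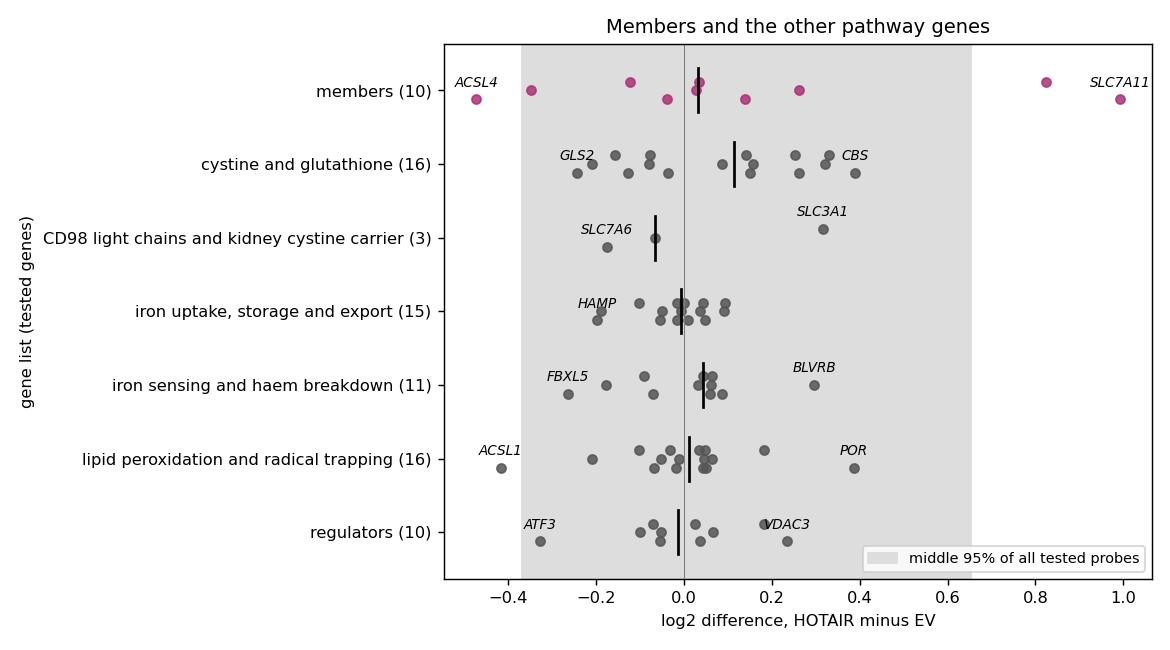
Log2 difference (x axis, HOTAIR minus EV) of the 10 members and of the tested genes of the 6 other lists (y axis, number tested in brackets), 1 point per gene at its brightest tested probe, with the lowest and highest gene of a list named, except the highest for iron uptake, storage and export; black bars are list medians and the grey band is the middle 95% of all tested probes. SLC7A11 (0.99) and HMOX1 (0.82) are the only points right of the band, and ACSL4 (-0.47) and ACSL1 (-0.42) lie left of it.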

How the data were processed

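Total RNA of 7 samples was profiled by microarray, with 1 Cy3-labelled sample per array and all arrays on 1 slide. The authors extracted the images with Agilent Feature Extraction 10.7.3.1 and deposited, for each array, the processed intensity of every spot, which that software had corrected for background, with mean and background intensity and its spot flags. A deposited table holds the same processed intensity, within 0.498% in all 440783 cells, without scaling between arrays. The annotation is on hg19. RefSeq GRCh38.p14 was used for chromosomes and symbols only.

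Levels are log2 processed intensity minus each array's 75th percentile over 58717 non-control spots, computed in R 4.3.3. Outlier-flagged spots were omitted and the remaining spots of each probe averaged. Probes lacking a value on any array were dropped, which left 42391 of 42405 probes before the filter on background. A probe entered the test if all EV or all HOTAIR arrays had it well above background, which means on at least a share of 0.5 of its spots. This left 20419 probes with 16664 gene names. The groups were compared with limma 3.58.1 (lmFit, eBayes, no block), and p-values were adjusted by Benjamini-Hochberg with a threshold of 0.05. The procedure was tested on simulated data, and the outcome of that test is not given here. The brightest tested probe represents a gene. The number of arrays limits the precision. The p-values set the group difference against the spread between these samples, which may be technical, so they may not cover variation between infections or cultures. Named genes are the members, HOTAIR, pathway genes past the adjusted p, and the highest and lowest gene of each list, of which 1 is not reported here. The members and the lists were chosen with earlier results of these data known. Alternatives were other scalings, backgrounds, filters, tests and arrays left out. Leaving out EV 2 and HOTAIR 3 together was chosen after seeing the data.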

Additional observations from a re-analysis of the deposited data

Results flagged for a closer look

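FTL probe A_23_P50504 had 1 array far from the others of its group. Its level was 4.36 on EV 2 and 5.77, 5.79 and 5.61 on EV 1, EV 3 and EV 4, a gap to the nearest array of 0.874 of the group's range. The EV group of 13 member probes was tested in this way and 1 was marked, where chance marks about 1 group in 20. EV 2 was also the lowest EV array for the other FTL probe and for SLC3A2.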

How the results depend on the processing

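The log2 difference of SLC7A11 lay between 0.93 and 1.04 and that of HMOX1 between 0.76 and 0.92 under all 17 alternatives. The other filters, the trend and robust moderation and the Mann-Whitney U test left each difference as reported, since they change p-values only. The replicate block gave the same differences as leaving out EV 4, so these are not separate checks of a difference. SLC7A11 passed the adjusted p in 6 of the 17 alternatives and HMOX1 in 0. The members past it, 1 in the comparison as reported, were 0 with the deposited table without scaling, without a filter on dim probes, with the replicate block, by the exact Mann-Whitney U test and without both EV 2 and HOTAIR 3, and 0 to 1 with each array left out in turn (1 only without EV 2). Of all tested probes, 34 as reported, 12 passed after normexp background correction, 14 without a filter, 22 with a filter on all arrays, 20 with trend and robust moderation, 0 with the replicate block, 0 by the Mann-Whitney U test and 9 to 30 with each array left out (9 without EV 1, 30 without EV 2). The smallest p of that exact two-sided test with these groups is 0.0571, so it could make no call. The count of other pathway genes past it stayed at 0 throughout. The replicate numbers were not shown to pair the samples, since the deviations of same-numbered arrays correlated at 0.39, -0.37 and -0.41. The highest correlation of an EV array with a HOTAIR array was 0.62, for EV 2 and HOTAIR 3. Differences of SLC40A1, ACSL4, TFRC, FTH1 probe A_24_P58337 and FTL probe A_32_P155247 kept their sign under all alternatives, while those of SLC3A2, GPX4, AIFM2, the other FTH1 probes and FTL probe A_23_P50504 changed sign under 1 to 6. Normexp background correction moved the difference of SLC40A1, a dim probe, to -0.16.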
